A study of Mus musculus with 15 samples.

Results

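Myeloid cells sorted from the hindbrain of Twitcher mice at postnatal day 15 (P15) were compared with the same sorted cells at postnatal day 10 (P10). The comparison rests on 5 of the 15 bulk RNA sequencing libraries of the study, chosen by genotype and age alone: 2 Twitcher (Twi) libraries at P15 and 3 at P10. Genes were kept if they reached a CPM (normalised counts scaled to library size) of 1 in at least 2 of all 15 libraries, which left 13292 of 29956 named genes. The other libraries were 3 Twi at P20, 2 wild type (WT) at P10, 2 WT at P15 and 3 WT at P20, and they entered the fit so that all 6 groups shared 1 estimate of the spread. Cells were gated on CD45 and CD11b, which microglia and other myeloid cells both carry, after dounce homogenisation of brainstem with cerebellum and removal of myelin. No agent or transplant is named in the labels of any of these libraries, and strain, sex and the number of animals per library are not given there. A droplet platform and mice that received donor cells appear in the text of the series but in no sample label, and grouping here followed the labels. The p-values below therefore measure the spread between libraries, which may be technical. Values of several libraries are listed in replicate order, and in WT P10 the unnumbered library comes last.

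Twitcher mice carry a mutation of Galc and model Krabbe disease. Galc encodes galactosylceramidase, which in lysosomes digests the myelin lipid galactosylceramide and its toxic relative psychosine. Microglia are the resident macrophages of the brain and take up myelin debris, and in the postnatal hindbrain they proliferate and mature while myelin is being laid down. Macrophages that meet undigested lipid, dying cells or cytokines can raise antigen presentation, interferon-stimulated genes and inflammatory mediators, and can lower the transcripts of the resting microglial state. Changes from P10 to P15 in Twi mice hold normal postnatal maturation as well as any change tied to the mutation, so the same step in WT mice is given beside many of the results.

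Galc, the mutated gene, was at 3.98, 4.27 and 5.25 CPM in the Twi P10 libraries and at 7.10 and 5.49 CPM in the Twi P15 libraries, against 55.9 and 68.5 CPM at P10 and 31.5 and 28.00 CPM at P15 in WT. All 5 Twi libraries were below all 4 WT libraries of these ages, in accord with their labels. The change of Galc from P10 to P15 in Twi, 0.47 ± 0.27 (log2 fold change ± SE), did not pass the test (limma, adjusted p = 0.5). Of 12 microglial markers, none was called in Twi (limma, adjusted p under 0.05), where 0.293% of all tested genes were called. Their summed level was 44393 to 53661 CPM at P10 and 49287 to 50931 CPM at P15. P2ry12, the purinergic receptor used to identify microglia, held 10766, 11247 and 10437 CPM at P10 and 11770.3 and 9673 CPM at P15. Cx3cr1, the fractalkine receptor, was uneven between libraries of one group, at 2951, 6305 and 71.2 CPM at P10 and 67.8 and 4533 CPM at P15, and no change of this gene was called. Twi P15 replicate 1 stood apart from the other 14 libraries along a principal component holding 8.61% of the variance, where it scored 79.3 and no other library more than 22.1. Across all tested genes its correlation with the other Twi P15 library was 0.935, while the Twi P10 libraries correlated at 0.948 to 0.952 with each other. Twi P10 replicate 2 was the one library of these 5 labelled batch 1 and the one with high Y-linked transcripts, a mean of 6.78 on the log2 CPM scale against 0.435 to 1.27 in the other 4.

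Between P10 and P15, 39 genes changed in Twi cells, 0.293% of those tested (limma, Benjamini-Hochberg adjusted p under 0.05). Of these, 25 rose (0.188%) and 14 fell (0.105%). The genes that rose included the antigen presentation genes H2-K1 and H2-Q7, the interferon-inducible GTPase Tgtp2, the cytokine and chemokine genes Il12b and Cxcl16, and the surface receptors Tlr2, Cd72, Cd83 and Hcar2. Those that fell included Fcgrt, Gas6, Npl and Fcna, genes of macrophages, and the neuronal transcripts Elavl3, Stmn4 and Sox11. In all 39 genes the P15 libraries did not overlap the P10 libraries, a separation that 28.9% of all tested genes showed. A further measure of the background is that 1728 genes, 13% of those tested, had an unadjusted p under 0.05, with 878 higher (6.61%) and 850 lower (6.39%) at P15. The median log2 fold change over all tested genes was -0.01. Within the libraries labelled batch 2 alone, which leave out Twi P10 replicate 2, 18 genes were called, 15 higher and 3 lower, and with all libraries shifted to a common median the split was 20 higher and 20 lower. Being bulk samples, these libraries cannot tell fewer cells of a type from less RNA per cell.

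**Figure D1:**
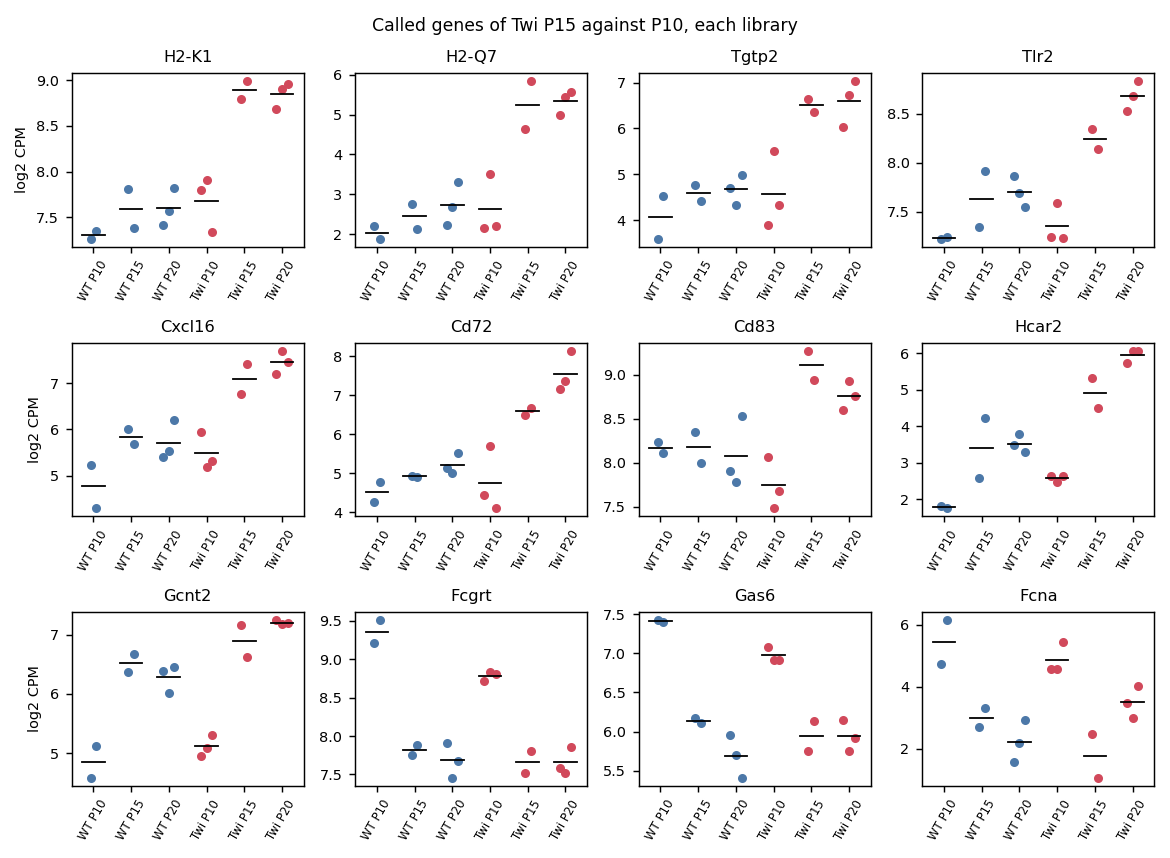
Level of 12 called genes on the log2 CPM scale (vertical axis) in each library of the 6 groups (horizontal axis), with WT in blue, Twi in red and a black bar at each group mean. Each panel has its own range, and in every panel both Twi P15 points lie clear of the 3 Twi P10 points.

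Genes of major histocompatibility complex (MHC) class I presentation gave 2 of the 25 rises. H2-K1, a classical class I heavy chain that presents peptides to CD8 T cells, was measured at 223, 240.4 and 161 CPM at P10 and 443 and 508 CPM at P15. Both P15 libraries were higher than every P10 library, with a log2 fold change of 1.19 ± 0.20 (limma, adjusted p = 0.0316). In WT the same gene held 154 and 163 CPM at P10 and 224 and 166 CPM at P15, a change of 0.29 ± 0.21 that did not pass (limma, adjusted p = 0.482). H2-Q7, a class I gene of the Qa-2 group, was measured at 4.39, 11.3 and 4.48 CPM at P10 and 24.97 and 57.2 CPM at P15. Its P15 libraries were also above all P10 libraries, and they differed more from each other than those of H2-K1 did (log2 fold change 2.61 ± 0.49, limma, adjusted p = 0.048). The WT change of H2-Q7 was 0.41 ± 0.52 (limma, adjusted p = 0.734). Class I heavy chains are near-identical copies, so their reads can be split between neighbouring genes and both values are uncertain in that respect. H2-D1, another classical heavy chain, was at 872, 235 and 566 CPM at P10 and 782 and 1615 CPM at P15, with overlapping groups. Of the 28 class I genes tested, 2 were called higher in Twi, against 0.188% of all tested genes. Of the 28, 20 had a fold change above 0 and 8 below, with a median of 0.43 in Twi and 0.18 in WT. In WT, 2 of the 28 rose (H2-Q10 and Tap2) and 1 fell (Canx), against 2.99% and 3.49% of all tested genes. The change of H2-Q10, a secreted class I protein, was 2.42 ± 0.34 in WT (limma, adjusted p = 0.0019) and 1.45 ± 0.32 in Twi (limma, adjusted p = 0.0852). Beta-2 microglobulin (B2m), the light chain shared by all class I molecules, did not pass and its groups overlapped, at 2583, 4157 and 2555 CPM at P10 and 1996 and 4606 CPM at P15.

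The promoters of called genes were searched for short motifs of immune and growth regulators, since several called genes belong to pathways with well-known motifs. The RefSeq promoter table (build GRCm38.p6, not the build named in the submitters' notes) held 30 of the 39 called genes, with 36 promoters; Ap3m2, Cd83, Cxcl16, Gm8995, Hcar2, R3hcc1, Rgs1, Stmn4 and Tuft1 were not matched, and Pydc4 was matched through its RefSeq entry Ifi213. The 5 motifs were chosen with the called genes known, and both strands of the 250 bases before each start were read. No motif contains another. A called gene counts if any of its promoters matches, while the shares of the table are per promoter, so these are unlike units. The NF-kB motif GGGNNTTCC lay before 3 called genes, H2-K1, H2-Q7 and Tlr2, all of which rose, and before 4.98% of all 32851 promoters in the table. The windows of 89 bases around these matches are shown because these genes rose together. Capitals mark the motif.
H2-K1, chr17:34000410-34000498, - strand: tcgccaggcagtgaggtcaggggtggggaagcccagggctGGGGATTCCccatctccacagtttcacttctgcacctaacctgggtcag
H2-Q7, chr17:35438982-35439070, + strand: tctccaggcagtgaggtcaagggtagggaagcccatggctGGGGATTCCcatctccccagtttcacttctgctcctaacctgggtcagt
Tlr2, chr3:83841732-83841820, - strand: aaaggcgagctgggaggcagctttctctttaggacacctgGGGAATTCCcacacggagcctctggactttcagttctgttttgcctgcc
The windows of H2-K1 and H2-Q7 resemble each other outside the motif as well, and these class I genes are related copies rather than separate cases. The interferon-stimulated response element, searched as GAAANNGAA, lay before Pydc4, Tgtp2, Trim12c and Zfp655, all higher at P15, and before 7.13% of all promoters. For Pydc4 and Tgtp2, the genes with the larger changes among these, the match starts 73 and 70 bases before the transcript start.
Pydc4, chr1:173599297-173599385, - strand: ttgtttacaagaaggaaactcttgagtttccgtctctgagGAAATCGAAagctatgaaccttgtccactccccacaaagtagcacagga
Tgtp2, chr11:49064234-49064322, - strand: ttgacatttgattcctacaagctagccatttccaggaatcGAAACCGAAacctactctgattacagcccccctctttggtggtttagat
Of the other motifs, the PU.1 motif GAGGAAGT matched Cd72, Trim12c and the falling Fam214a (2.44% of all promoters), and the AP-1 motif TGANTCA matched Cd244 and Fgl2 (6.75%). The E2F motif TTTGGCGC (0.417%) matched no called gene. A match describes these letters in this window and no more.

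Tgtp2, Pydc4 and Trim12c rose and are not on the list of interferon-stimulated genes. Tgtp2, an immunity-related GTPase induced by interferon gamma, was measured at 14.8, 45.8 and 19.9 CPM at P10 and 101 and 81.8 CPM at P15. The P15 libraries were above all P10 libraries, and P10 replicate 2, the batch 1 library, was the highest at P10 (log2 fold change 2.11 ± 0.40, limma, adjusted p = 0.0484). Pydc4, of the interferon-inducible PYHIN family, showed the same arrangement at 6.01, 25.5 and 7.73 CPM at P10 and 47.04 and 40.5 CPM at P15 (log2 fold change 2.29 ± 0.44, limma, adjusted p = 0.0494). In WT the change was 0.53 ± 0.42 for Tgtp2 (limma, adjusted p = 0.54) and 1.34 ± 0.47 for Pydc4 (limma, adjusted p = 0.109). Both genes have close relatives in clusters, so reads may be shared between copies. Trim12c, a relative of the antiviral TRIM5 proteins, changed by 0.94 ± 0.18 in Twi and 1.13 ± 0.19 in WT. In the list of interferon-stimulated genes, 0 of 53 tested members passed in either direction. At an unadjusted p under 0.05, 28 members changed, all higher, against 6.61% of all tested genes that were higher. All 53 members had a fold change above 0 in Twi, and 46 of them in WT. Their median log2 fold change was 0.73 in Twi, against -0.01 over all genes. In WT the list median was 0.39 and 4 members rose (Ifit1, Oas3, Samd9l and Sp100), against 2.99% of all tested genes. In Twi the summed level of the list was 3211 to 5125 CPM in the P10 libraries and 5529.8 to 6723 CPM in the P15 libraries. The highest P10 sum was again replicate 2. Without that library the median was 0.95, and the part of batch or of the Y-linked difference in these values was not tested. Oas3, which makes the activator of the antiviral nuclease RNase L, came closest, at 4.00, 4.86 and 4.35 CPM at P10 and 16.2 and 21.2 CPM at P15 (log2 fold change 2.19 ± 0.45, limma, adjusted p = 0.0663). In WT Oas3 rose by 1.76 ± 0.48 (limma, adjusted p = 0.0445). Gbp2, a guanylate-binding protein of antimicrobial defence, was at 32.7, 49.4 and 21.1 CPM at P10 and 79.8 and 69.3 CPM at P15 (adjusted p = 0.0816 by limma), and Irf7, the transcription factor that amplifies type I interferon, at 31.98, 60.9 and 28.2 CPM at P10 and 92.6 and 93.6 CPM at P15 (limma, adjusted p = 0.181). The WT fold changes were -0.26 ± 0.32 and 0.64 ± 0.42, neither called.

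Of the 38 tested genes on the list of inflammatory cytokines and the NF-kB pathway, 3 rose (Il12b, Tlr2 and Cxcl16) and none fell. Over all tested genes, 0.188% rose. The list had a median log2 fold change of 0.84 in Twi and 0.64 in WT. Il12b, the p40 subunit shared by interleukins 12 and 23, was measured at 0, 2.58 and 0.261 CPM at P10 and 8.39 and 26.5 CPM at P15. It was nearly unread at P10 and clearly present in both P15 libraries, with replicate 2 the higher, and the fitted change was 5.59 ± 0.97 (limma, adjusted p = 0.0383). In the Twi P20 libraries it held 42.2, 23.8 and 37.2 CPM, and in WT it stayed at or below 0.104 CPM at P10 and at the table's lowest value at P15. Tlr2, a receptor for bacterial lipoproteins and danger signals, rose from 165 ± 24.01 CPM (SD, n = 3) to 303 ± 29.9 CPM (SD, n = 2), from 152, 193 and 151 CPM to 324 and 282 CPM by library (limma, log2 fold change 0.98 ± 0.15, adjusted p = 0.0171). The WT change of Tlr2 was 0.39 ± 0.15 (limma, adjusted p = 0.158). Cxcl16, a membrane-bound chemokine that also takes up oxidised lipoprotein, was measured at 61.2, 36.4 and 39.8 CPM at P10 and 108 and 169.7 CPM at P15 (limma, log2 fold change 1.43 ± 0.27, adjusted p = 0.048). It rose in WT too, by 1.08 ± 0.29 (limma, adjusted p = 0.0403). Il1b, the main secreted interleukin 1, did not pass in Twi at 10.4, 11.3 and 7.62 CPM at P10 and 24.3 and 34.7 CPM at P15 (limma, adjusted p = 0.118), and Tnf overlapped between the ages at 3.49, 6.69 and 4.59 CPM at P10 and 3.64 and 6.76 CPM at P15.

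Several genes of surface proteins were among the other rises. Cd83, an immunoglobulin-like surface protein of activated antigen-presenting cells, was measured at 269, 179 and 205 CPM at P10 and 619 and 491 CPM at P15, with both P15 libraries above all P10 libraries (limma, log2 fold change 1.27 ± 0.20, adjusted p = 0.0302). WT libraries of the ages overlapped, at 301 and 276 CPM at P10 and 326 and 256 CPM at P15 (change 0.00 ± 0.22). Cd72, an inhibitory lectin that binds the semaphorin CD100, was measured at 21.6, 52.04 and 17.1 CPM at P10 and 90.2 and 101 CPM at P15 (limma, log2 fold change 1.99 ± 0.37, adjusted p = 0.048). It was higher again in the Twi P20 libraries, at 142, 163 and 282 CPM, and lay between 19.1 and 30.6 CPM in the WT libraries of P10 and P15. Cd244, a receptor of the SLAM family, was at 13.4, 11.3 and 11.5 CPM at P10 and 42.4 and 49.9 CPM at P15 (limma, log2 fold change 1.95 ± 0.30, adjusted p = 0.0237), and it also rose in WT, by 1.17 ± 0.32. Hcar2, the receptor for the ketone body beta-hydroxybutyrate and for niacin, was at 6.06, 5.48 and 6.11 CPM at P10 and 39.6 and 22.4 CPM at P15 (limma, log2 fold change 2.42 ± 0.40, adjusted p = 0.0316). Its 3 P10 values were close together and the P15 values were far above them. Hcar2 rose in WT too, from 3.43 and 3.27 CPM to 5.83 and 18.6 CPM, by 1.61 ± 0.42 (limma, adjusted p = 0.0389). Ptpro, a receptor-type tyrosine phosphatase, was at 10.03, 6.89 and 4.70 CPM at P10 and 23.5 and 28.3 CPM at P15 and at 15.2 and 18.3 CPM at P10 and 8.29 and 10.6 CPM at P15 in WT, so that the means of the genotypes moved in opposite directions (Twi 1.997 ± 0.35, limma adjusted p = 0.0411; WT -0.83 ± 0.37, limma adjusted p = 0.223). Fgl2, a secreted or membrane-bound immune regulator, was at 121, 77.6 and 106 CPM at P10 and 248 and 224 CPM at P15 (limma, log2 fold change 1.18 ± 0.20, adjusted p = 0.0383), and Apobec1, an RNA-editing cytidine deaminase, at 117, 159 and 123 CPM at P10 and 220.1 and 216 CPM at P15 (limma, 0.80 ± 0.14, adjusted p = 0.0416).

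A second set of rises was shared with WT mice of the same ages. Gcnt2, the enzyme that adds I-type branches to glycans, was measured at 30.99, 34.04 and 39.7 CPM at P10 and 143 and 98.4 CPM at P15. Both P15 libraries were well above all P10 libraries, and the change of 1.84 ± 0.21 had the smallest adjusted p of the called genes read in all 5 Twi libraries (limma, adjusted p = 0.00304), beside 1.67 ± 0.22 in WT. Fam46c, a poly(A) polymerase that stabilises messenger RNA, was at 34.8, 41.3 and 35.2 CPM at P10 and 86.1 and 77.5 CPM at P15 (limma, log2 fold change 1.23 ± 0.16, adjusted p = 0.00855), with 1.35 ± 0.17 in WT. Trpm2, a calcium channel opened under oxidative stress, was at 16.3, 16.4 and 18.7 CPM at P10 and 39.5 and 45.3 CPM at P15 and changed by 1.27 ± 0.22 in Twi and 1.92 ± 0.23 in WT. Cd34, a sialomucin of progenitor cells that microglia can also carry, changed by 1.08 ± 0.20 in Twi and 1.26 ± 0.21 in WT, and Zfp655, a zinc finger protein, by 1.00 ± 0.16 and 1.10 ± 0.17. The predicted gene Gm8995 changed by 1.12 ± 0.15 and 1.30 ± 0.17. Fgl2, Apobec1, Trim12c, Cd34, Zfp655, Gm8995 and, among the falls, D430042O09Rik lie outside the rule for named genes and are given here after their values were seen. In all, 22 of the 39 Twi calls were called in the same direction in WT, 13 higher and 9 lower. This is 56.4% of the Twi calls and 2.55% of the 862 WT calls. Over all tested genes, 6.49% were called in WT, 2.99% higher and 3.49% lower. Ap3m2, a subunit of the AP-3 vesicle adaptor, was listed at 0 in all 3 Twi P10 libraries and at 4.70 and 6.33 CPM at P15 (limma, adjusted p = 0.00496); WT libraries held 2.74 and 2.95 CPM at P10 and 1.89 and 0.929 CPM at P15. No fold is given for it, since the P10 group lay wholly at the table's lowest value.

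Rgs1, Btg2 and Klf6 rose as well and belong to a list of early genes that tissue dissociation can induce. Rgs1, a brake on G protein signalling, was at 13.97, 12.04 and 7.48 CPM at P10 and 30.5 and 50.8 CPM at P15 (limma, log2 fold change 1.88 ± 0.36, adjusted p = 0.0484), and rose in WT by 1.38 ± 0.38 (limma, adjusted p = 0.0469). Btg2, an antiproliferative gene, changed by 0.73 ± 0.13 in Twi and 1.24 ± 0.14 in WT, and Klf6, a zinc finger transcription factor, by 0.84 ± 0.16 and 0.94 ± 0.17. Of the 30 tested genes of this list 3 rose, against 0.188% of all tested genes, and none fell. Of the 30, 24 had a fold change above 0, with a median of 0.61 in Twi and 0.49 in WT. Their summed level was 812 to 995 CPM at P10 and 1432 to 1628 CPM at P15 in Twi, and 807 to 843 and 1453 to 1569 CPM in WT. Fos, a prototype of such genes, held 19.2, 11.3 and 17.1 CPM at P10 and 27.00 and 42.8 CPM at P15 and did not pass (limma, adjusted p = 0.348). The part of this list in the rises of the immune genes above was not tested.

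Among the 14 falls, the genes with the highest levels were shared with WT. Fcgrt, the neonatal Fc receptor that recycles antibody and albumin, was measured at 420.1, 456 and 449 CPM at P10 and 184 and 223 CPM at P15. Each P15 library lay well below each P10 library (limma, log2 fold change -1.06 ± 0.15, adjusted p = 0.00983), with -1.54 ± 0.16 in WT. Gas6, the ligand of the receptors Axl and Mertk that mediate clearance of dying cells, was at 135, 121 and 121 CPM at P10 and 53.7 and 70.1 CPM at P15 (limma, log2 fold change -1.01 ± 0.19, adjusted p = 0.048), with -1.27 ± 0.20 in WT. Npl, which breaks down sialic acid, was at 184, 174 and 172 CPM at P10 and 75.4 and 103 CPM at P15 (limma, log2 fold change -0.95 ± 0.18, adjusted p = 0.048), with -1.38 ± 0.19 in WT. Fcna, a ficolin that recognises sugars on microbes, was at 23.7, 23.8 and 43.8 CPM at P10 and 5.44 and 2.01 CPM at P15 (limma, log2 fold change -3.09 ± 0.57, adjusted p = 0.048), with -2.42 ± 0.61 in WT. For these 4 genes the Twi step and the WT step pointed the same way, and both were called. Gas6 is also on the list of border-associated macrophages, whose 24 genes had a median of -0.91 in Twi and -1.61 in WT and summed to 2854 to 4002 CPM at P10 and 1988 to 2575 CPM at P15. With a library left out the Twi median ran from -1.01 to -0.34, the latter without Twi P10 replicate 3. Mrc1, the mannose receptor that defines these macrophages, was at 219, 422 and 478 CPM at P10 and 110.1 and 138 CPM at P15 and did not pass (limma, adjusted p = 0.249). The part of border-associated macrophages in the fall of Gas6 was not tested.

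The neuronal transcripts Sox11, Stmn4 and Elavl3 fell from low levels. Sox11, a transcription factor of immature neurons, was measured at 24.3, 5.68 and 9.59 CPM at P10 and 0.646 and 1.02 CPM at P15, so that the P15 values were near 1 CPM and replicate 1 was the highest at P10 (limma, log2 fold change -3.78 ± 0.63, adjusted p = 0.0339). Stmn4, a microtubule regulator of neurons, was at 10.2, 2.29 and 4.59 CPM at P10 and 0.137 and 0.529 CPM at P15 (limma, log2 fold change -3.94 ± 0.70, adjusted p = 0.0416). Elavl3, a neuronal RNA-binding protein, changed by -4.40 ± 0.79 (limma, adjusted p = 0.0416). It was at 3.69, 1.26 and 2.13 CPM at P10 and at the table's lowest value and 0.0867 CPM at P15. The size of its fold is uncertain so near that value, and it ran from -4.87 to -0.86 over the alternative settings. All these genes fell in WT as well, with log2 fold changes of -5.98 ± 0.67, -3.10 ± 0.75 and -3.04 ± 0.84 in the same order. Of 17 tested neuronal markers on the list none passed, 14 were below 0, and they summed to 33.3 to 67.6 CPM at P10 and 13.1 to 22.7 CPM at P15. The part of neuronal RNA in the sort in these falls was not tested.

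Several other falls were of genes near the table's lowest value at P15. Tuft1 (tuftelin) and Fam214a were listed at 0 in both Twi P15 libraries, and Ociad2 (a protein of mitochondria and endosomes) was at 0.00035 and 0 CPM, so that no fold is given. Tuft1 held 4.86, 5.39 and 3.57 CPM at P10 (limma, adjusted p = 0.000289), Ociad2 2.62, 3.64 and 3.68 CPM (limma, adjusted p = 0.00383) and Fam214a 0.661, 5.86 and 7.12 CPM (limma, adjusted p = 0.048). At P20 these genes were read again in all 3 Twi libraries, at 3.27, 3.29 and 4.76 CPM for Tuft1, 3.84, 2.35 and 2.87 CPM for Ociad2 and 7.51, 6.69 and 3.90 CPM for Fam214a. In WT, Tuft1 fell from 3.33 and 11.6 CPM to 0.691 and 1.44 CPM (-2.53 ± 0.50, limma, adjusted p = 0.0108). Ociad2 fell in WT from 4.57 and 5.32 CPM to a listed 0 in both P15 libraries (limma, adjusted p = 0.000598), and the WT P20 libraries held 0, 0 and 0.0156 CPM. Fam214a was at 5.45 and 6.18 CPM and 2.47 and 0.220 CPM in WT and was not called (limma, adjusted p = 0.138). At levels of a few CPM, such a 0 means not detectable at this depth and no more. Lmnb2, a B-type lamin of the nuclear envelope, was at 8.41, 7.57 and 14.3 CPM at P10 and 2.40 and 1.42 CPM at P15 (limma, log2 fold change -2.49 ± 0.43, adjusted p = 0.0383) and at 6.14, 11.8 and 11.9 CPM at P20, with a WT change of -0.34 ± 0.46. R3hcc1 and Iqcg changed by -1.67 ± 0.32 and -3.17 ± 0.61, and the unnamed transcript D430042O09Rik by -4.30 ± 0.72. None of these 3 was called in WT, where the changes were -0.46 ± 0.34, -1.01 ± 0.64 and 0.51 ± 0.77.

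Cell cycle genes had fold changes below 0 in nearly all members, nearer to 0 in Twi than in WT. None of the 53 tested genes passed in Twi in either direction (limma). At an unadjusted p under 0.05, 23 changed, all lower, against 6.39% of all tested genes that were lower. Of the 53, 52 had a fold change below 0. Their median log2 fold change was -0.65 in Twi and -1.81 in WT, where 39 of the 53 fell, against 3.49% of all tested genes. The summed level was 3490.1 to 4384 CPM in the Twi P10 libraries and 2114 to 2735 CPM in the Twi P15 libraries. In WT it was 3579 to 4282 CPM at P10 and 1154 to 1227 CPM at P15, so the ranges overlapped at P10 and both Twi P15 libraries were above both WT P15 libraries. Mki67, the proliferation antigen Ki-67, was measured at 148, 203 and 201 CPM at P10 and 142 and 149 CPM at P15 in Twi, where the groups lay close, and at 149 and 195 CPM at P10 and 41.3 and 43.7 CPM at P15 in WT, where they lay far apart. Its change was -0.27 ± 0.22 in Twi and -2.003 ± 0.23 in WT, a difference of 1.74 ± 0.32 that did not pass after adjustment (limma, adjusted p = 0.135). Fen1, a flap endonuclease of DNA replication, was at 166, 182 and 180.0 CPM at P10 and 133 and 106 CPM at P15 in Twi and at 194 and 198 CPM at P10 and 69.6 and 57.1 CPM at P15 in WT (difference 1.05 ± 0.21, limma, adjusted p = 0.245). Cdk1, the kinase that drives entry into mitosis, was at 108, 104 and 95.2 CPM at P10 and 32.2 and 57.1 CPM at P15 with a log2 fold change of -1.21 ± 0.28 in Twi (limma, adjusted p = 0.0935) and -1.86 ± 0.30 in WT. Across the 53 genes the Twi change was above the WT change in all 53, with a median difference of 1.00 and 18 at an unadjusted p under 0.05. Over all tested genes, 3.9% had a Twi change above the WT change at that p.

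**Figure D2:**
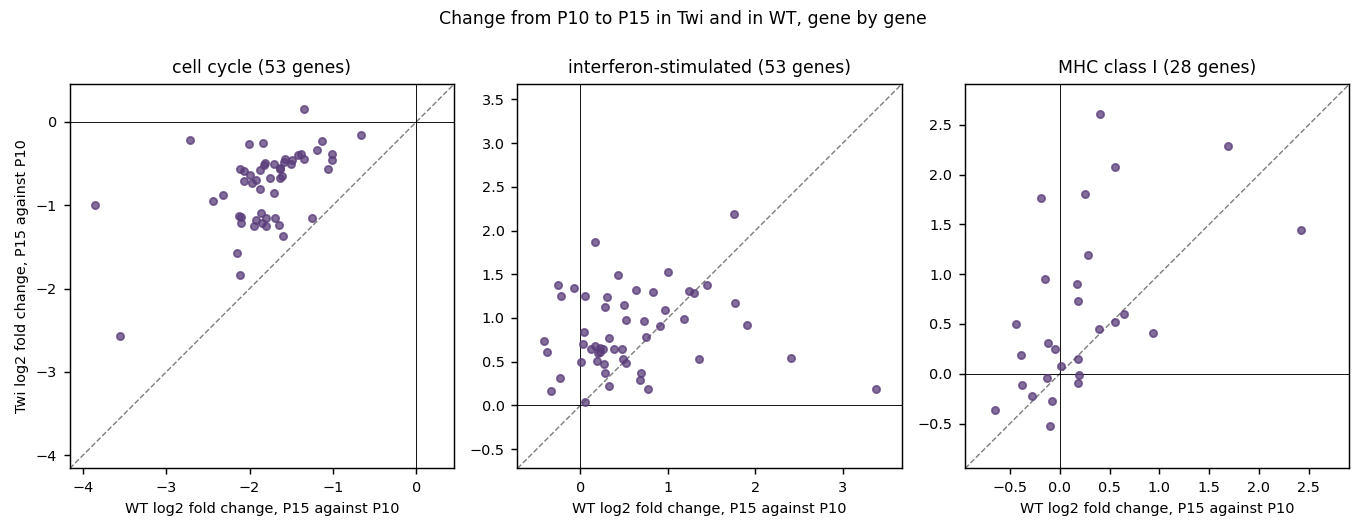
Log2 fold change from P10 to P15 in WT (horizontal axis) and in Twi (vertical axis) for each tested gene of 3 lists, with a dashed line where both are equal. All 53 cell cycle genes lie above the line and below or close to 0 in Twi. All 53 interferon-stimulated genes lie above 0 in Twi, and 46 of them in WT as well.

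The difference between the genotypes in the step from P10 to P15 was tested for every gene and none passed (limma, 0 called, smallest adjusted p = 0.135). At an unadjusted p under 0.05 there were 982 genes, 7.39% of those tested, 518 (3.9%) with the Twi change above the WT change and 464 (3.49%) below. With all libraries, 862 genes (6.49%) were called in WT, and the median SE of a fold change was similar, 0.338 in Twi and 0.360 in WT. The WT count depended on the libraries included. It was 12 in batch 2 libraries only, where Twi had 18, 111 and 143 without WT P15 replicate 1 or 2, and 252 and 177 without WT P10 replicate 1 or the unnumbered one. No order of the genotypes by number of calls is therefore drawn. Among the 398 genes that rose in WT (2.99%), 375 had a Twi change above 0, with medians of 1.28 in WT and 0.58 in Twi, while among the 464 that fell (3.49%), 432 had a Twi change below 0, with medians of -1.57 and -0.56. These WT medians come from genes chosen for their WT change and so are larger by that choice. Genes named for the smallest p of the genotype difference included Gpnmb, a glycoprotein of lipid-laden macrophages, at 45.8, 15.5 and 111 CPM at P10 and 13.99 and 19.95 CPM at P15 in Twi and 44.9 and 235 CPM at P10 and 0.199 and 0.215 CPM at P15 in WT. WT P15 libraries were close to unread while Twi P15 libraries kept levels near that of the lowest P10 library (difference 7.10 ± 1.21, limma, adjusted p = 0.135). Ch25h, which makes 25-hydroxycholesterol, was at 0.437, 1.56 and 1.04 CPM at P10 and 10.3 and 7.47 CPM at P15 in Twi and 0.907 and 4.26 CPM at P10 and 0.0432 and 0.430 CPM at P15 in WT, with no overlap in either genotype and in opposite directions (difference 6.44 ± 1.12, limma, adjusted p = 0.135). Hpse, the heparan sulphate-degrading heparanase, was at 8.88, 4.53 and 10.2 CPM at P10 and 6.59 and 5.35 CPM at P15 in Twi and 6.82 and 14.5 CPM at P10 and 0.0428 and 0.213 CPM at P15 in WT. Ctsb, the lysosomal protease cathepsin B, was at 10645, 9114 and 11174 CPM at P10 and 7869.9 and 8609 CPM at P15 in Twi and 12726 and 18573 CPM at P10 and 5385 and 5949 CPM at P15 in WT. Bbs9, of the BBSome complex of cilia, and F5, coagulation factor V, went the other way. The log2 fold change of Bbs9 was 0.54 ± 0.19 in Twi and 2.17 ± 0.20 in WT, and that of F5 was 0.28 ± 0.38 and 2.95 ± 0.40.

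Each list of microglial state held 0 or 1 call in Twi between these ages, where 0.293% of all tested genes were called. At that share, such counts say little about a list. Of the 30 homeostatic microglia genes, none passed in Twi and the median was -0.02. In WT 5 of the 30 rose, where 2.99% of all tested genes rose, and the median was 0.32. Tmem119, a surface protein of resting microglia, held 3434, 3128 and 3499 CPM at P10 and 5129.8 and 3707 CPM at P15 in Twi and 3699.9 and 2209.7 CPM at P10 and 5376 and 6523 CPM at P15 in WT. Of the 34 tested genes of disease-associated microglia, Cd83 alone passed, and 17 were above and 17 below 0, and the median was 0.05. Leaving out Twi P15 replicate 2 turned this median to -0.27. In WT the median was -0.45, and 1 gene rose and 10 fell, where 2.99% of all tested genes rose and 3.49% fell. Axl, the receptor of Gas6, was at 54.5, 77.2 and 45.2 CPM at P10 and 142 and 105 CPM at P15 and did not pass (limma, log2 fold change 1.15 ± 0.25, adjusted p = 0.0825), while Gas6 itself fell. Clec7a, the receptor dectin-1, was at 121, 94.6 and 103 CPM at P10 and 182 and 209 CPM at P15, without overlap (limma, adjusted p = 0.199). Spp1 (osteopontin), in contrast, varied among the P10 libraries alone, at 1163, 128 and 1392 CPM, and held 147 and 270.2 CPM at P15. Of 44 genes of complement and phagocytosis only Gas6 passed, and the median was 0.15. MHC class II genes were above 0 in 14 of 15, none passed, and the median was 0.76 in Twi and 0.65 in WT; the sum was 2270.4 to 2417 CPM at P10 and 3609.8 to 3647 CPM at P15 without overlap.

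Lipid and lysosome genes, the pathways nearest to the enzyme that Twitcher mice lack, held no call in Twi. Only 0.293% of all tested genes were called there, so the lack of calls says little about these lists. The 59 lysosomal genes had a median of 0.00, with 31 above and 28 below 0. At an unadjusted p under 0.05 (limma), 6 were higher and 4 lower, against 6.61% and 6.39% of all tested genes. In WT 2 of them rose and 11 fell, where 2.99% of all tested genes rose and 3.49% fell. The 49 genes of sphingolipid metabolism had a median of 0.02, and the 26 of cholesterol synthesis -0.23. Of 43 genes of lipid uptake and storage, 26 were below 0 with a median of -0.16, against -0.42 and 13 falls in WT. Abcg1, a cholesterol exporter, was at 1428, 921 and 1122 CPM at P10 and 579.6 and 891 CPM at P15 in Twi (limma, log2 fold change -0.69 ± 0.21, adjusted p = 0.194) and fell by 1.68 in WT on the log2 scale. Lpl, lipoprotein lipase, was at 187, 210.2 and 222 CPM at P10 and 113 and 157 CPM at P15 in Twi and changed by -1.55 ± 0.28 in WT (limma, adjusted p = 0.00741). Psat1, an enzyme of serine synthesis on the stress response list, was at 91.9, 80.9 and 105 CPM at P10 and 38.2 and 44.9 CPM at P15 (limma, log2 fold change -1.07 ± 0.24, adjusted p = 0.0877) and was lower at P15 in WT too, at 117 and 138 CPM at P10 and 17.3 and 27.3 CPM at P15. On the same list Atf3, a stress-induced transcription factor, was at 13, 17.4 and 9.88 CPM at P10 and 32.7 and 33.5 CPM at P15 (limma, adjusted p = 0.0603), and the 34 genes had a median of 0.23. Glycolysis and hypoxia, matrix protease and chemokine and growth factor receptor genes had medians of 0.13, 0.12 and 0.17, with no call.

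**Figure D3:**
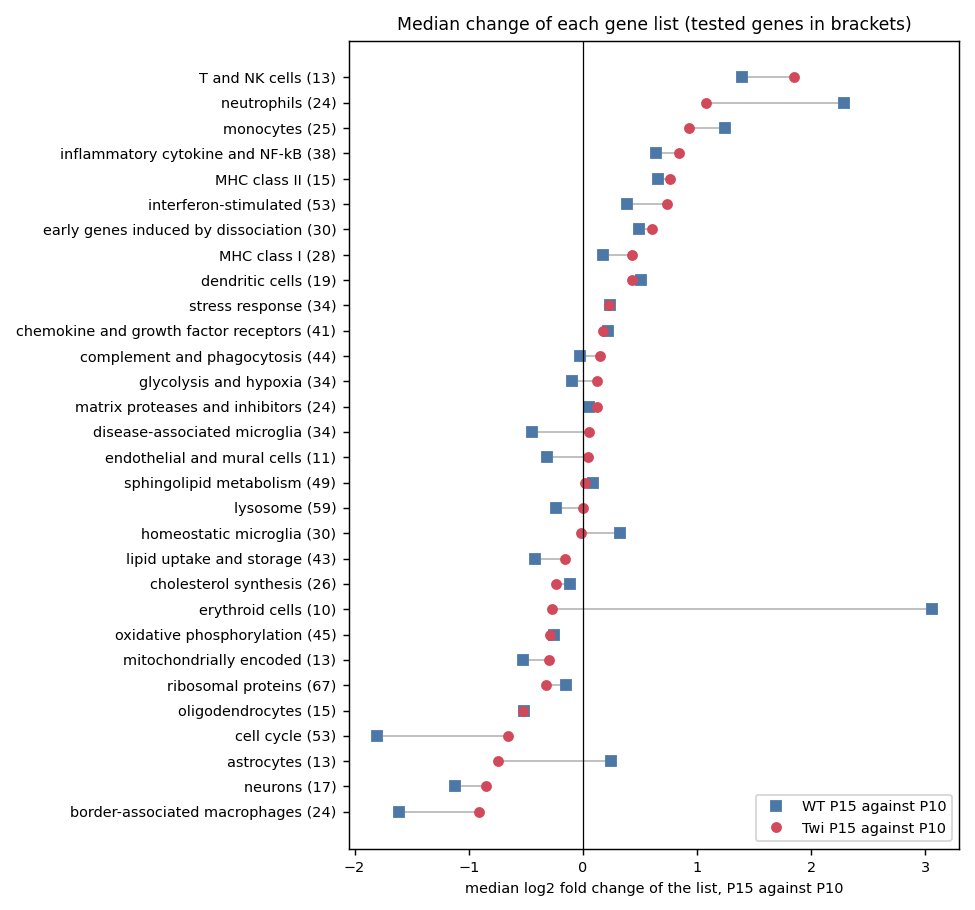
Median log2 fold change from P10 to P15 (horizontal axis) of gene lists with at least 10 tested genes (vertical axis), in Twi (red circles) and in WT (blue squares). The list of 12 microglial markers is left out. Twi medians run from -0.91 for border-associated macrophages to 1.85 for T and NK cells, and the cell cycle list shows a WT median of -1.81 beside -0.65 in Twi.

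Marker lists of monocytes, neutrophils and T and NK cells had medians above 0 in both genotypes, without a call in Twi. The 25 monocyte markers had 24 fold changes above 0, a median of 0.93 in Twi and 1.25 in WT, and sums of 3428 to 4946 CPM at P10 and 6691 to 7176 CPM at P15. Ccr2, the chemokine receptor of inflammatory monocytes, was at 137, 107 and 129.6 CPM at P10 and 442 and 261 CPM at P15 (limma, adjusted p = 0.167). The 24 neutrophil markers had a median of 1.08 in Twi and 2.29 in WT, where 17 rose, against 2.99% of all tested genes. The neutrophil markers summed to 7616 to 12224 CPM at P10 and 14099 to 19638 CPM at P15 in Twi. Hdc, histidine decarboxylase, was at 60.4, 25.9 and 44.6 CPM at P10 and 146 and 146 CPM at P15 (limma, adjusted p = 0.0793), and S100a8, a neutrophil calprotectin subunit, at 375, 1167 and 1024 CPM at P10 and 753 and 2237 CPM at P15 with overlap. The 13 tested T and NK cell markers summed to 34.8 to 46.3 CPM at P10 and 114 to 127 CPM at P15, with a median of 1.85; the T cell receptor component Cd3d was at 3.59, 4.31 and 3.64 CPM at P10 and 3.68 and 6.27 CPM at P15. Red cell markers, 10 tested, had a median of -0.27 in Twi and 3.05 in WT. The Twi median ran from -1.10 without Twi P10 replicate 3 to 0.27 without Twi P10 replicate 1, so it has no settled sign. The part of these other cells in the immune genes that rose was not tested. The called monocyte and neutrophil genes in Twi numbered 0, where 0.293% of all tested genes were called. At an unadjusted p under 0.05, 13 of 25 and 12 of 24 were higher, against 6.61% of all tested genes. Of the remaining cell type lists none held a call in Twi: the medians were 0.43 for 19 dendritic cell markers, 0.15 for 6 of B cells, -0.53 for 15 of oligodendrocytes, 0.51 for 2 of their precursors, -0.74 for 13 of astrocytes, 0.04 for 11 of vessels and -0.17 for 4 of choroid plexus and ependyma. For 3 of these lists the sum moved against the median without overlap between the ages. It was 2886 to 3222 CPM at P10 and 3419 to 4232 CPM at P15 for oligodendrocytes, 160.2 to 197 and 251 to 278 CPM for astrocytes, and 1118 to 1151 and 763 to 954 CPM for B cells.

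Housekeeping lists depended on a single library. Ribosomal protein genes had a median log2 fold change of -0.32 over 67 genes with 62 below 0, oxidative phosphorylation -0.29 over 45 with 44 below 0, and mitochondrially encoded genes -0.30 over 13 with 11 below 0, none of them called. By library, ribosomal protein transcripts summed to 8024, 13591 and 11275 CPM at P10 and to 5045 and 10651 CPM at P15. The low value belonged to P15 replicate 1, and replicate 2 lay inside the P10 range. Without replicate 1 the medians were 0.37 for ribosomal proteins and 0.04 for oxidative phosphorylation, and without replicate 2 they were -0.95 and -0.79. The interferon-stimulated and cell cycle lists did not turn in this way, with medians of 0.68 and -0.52 without replicate 1 and 0.87 and -0.87 without replicate 2.

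**Figure D4:**
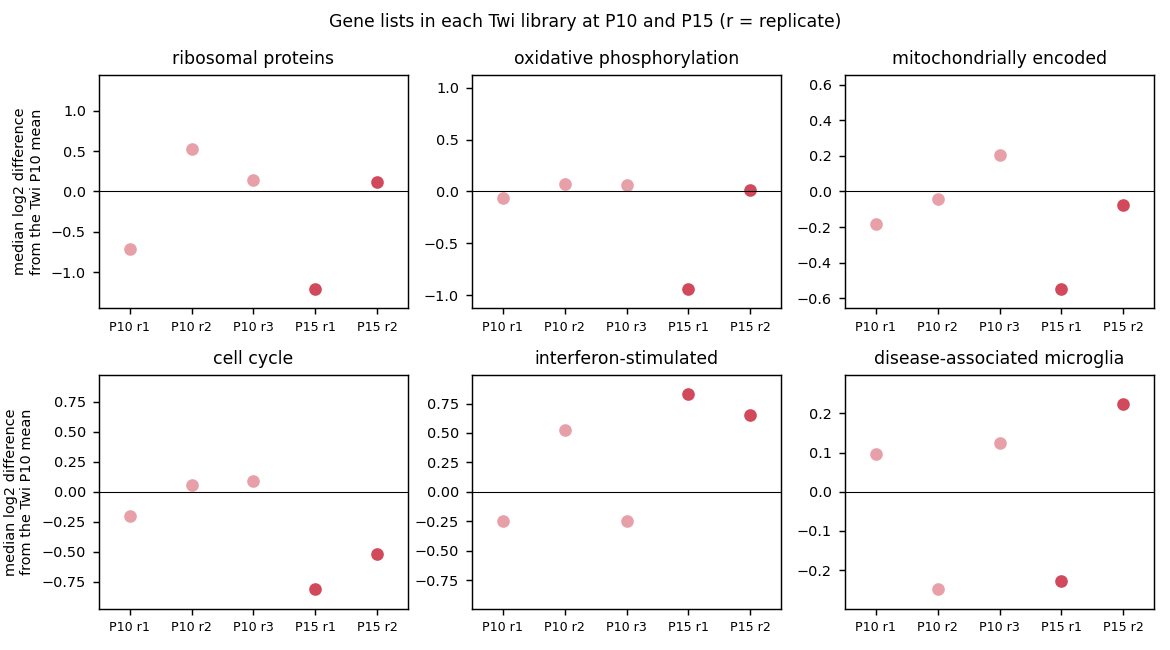
Median over the genes of a list of the log2 difference from the Twi P10 mean (vertical axis, a separate range in each panel) for each Twi library at P10 and P15 (horizontal axis). P15 replicate 1 is the lowest point for ribosomal, oxidative phosphorylation and mitochondrially encoded genes, while both P15 libraries lie below the P10 libraries for cell cycle genes and above them for interferon-stimulated genes.

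How many genes were called depended on which libraries were included. Without Twi P15 replicate 2 there were 207 calls (47 higher, 160 lower), and without replicate 1 there were 11 (2 higher, 9 lower). In these fits the lone P15 library is assumed to vary like the other groups. Leaving out Twi P10 replicate 1, 2 or 3 gave 7, 23 and 4 calls. Leaving out a library outside the comparison changed only the shared spread and the batch estimate, and gave 20, 14 and 23 calls for Twi P20 replicates 1, 2 and 3 and 19 to 22 for each WT library except WT P20 replicate 3, which gave 36. Gcnt2, Tuft1, Ap3m2 and Ociad2 were called with every library left out in turn, and Fam46c in 13 of 15. Cd244, Fcgrt, Tlr2, Zfp655 and Gm8995 were called in 12 of 15, H2-K1 and Cd83 in 11, Hcar2 and Sox11 in 10 and Il12b in 7. D430042O09Rik and Fgl2 were called in 8 of 15, and Tgtp2 and Stmn4 in 5. Cd72, Npl, Elavl3, Lmnb2 and Apobec1 were called in 4 of 15, and Gas6, Fcna, Ptpro, Trpm2, Btg2, Cd34 and Fam214a in 3. H2-Q7, Pydc4, R3hcc1 and Rgs1 were called in 2 of 15 and Cxcl16, Klf6, Trim12c and Iqcg in 1. The calls at 4 or fewer of 15 rested on nearly every library. Without P15 replicate 1, the called genes among the 39 were Ap3m2, Gcnt2, Tuft1, Ociad2 and D430042O09Rik. Fitted on these 5 libraries alone without a batch term, no gene passed (limma, 0 called, 1548 at an unadjusted p under 0.05). In the other fits the 39 called genes kept the sign of their change wherever they were tested, 36 of them at a minimum of 5 CPM and 39 elsewhere. These genes were called in the same data and their groups did not overlap. A change of sign was therefore hardly possible, and the kept sign adds no support.

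**Figure D5:**
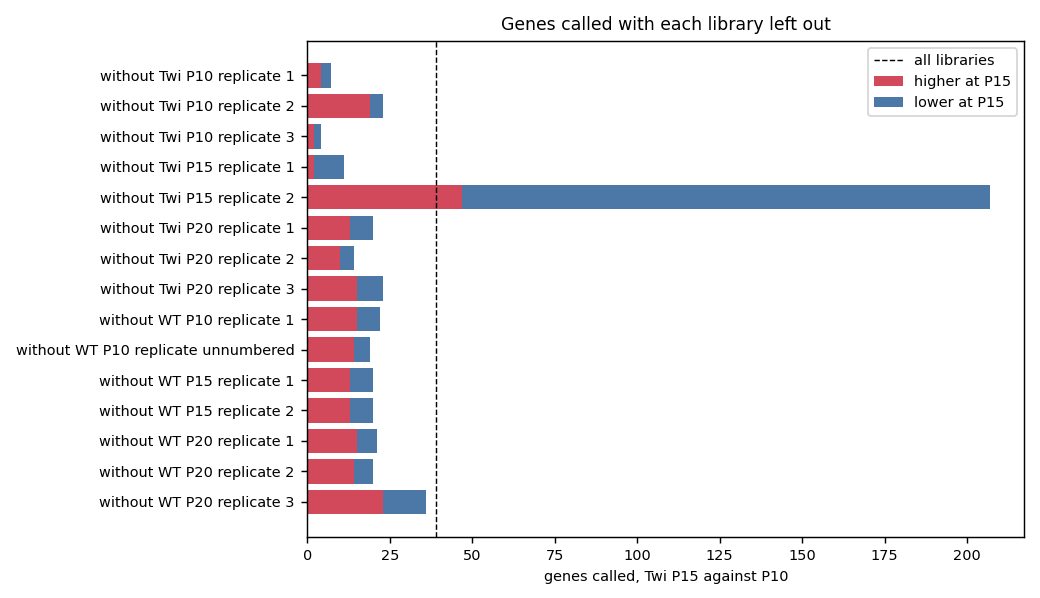
Number of genes called for Twi P15 against P10 (horizontal axis) when each of the 15 libraries was left out (vertical axis), split into higher (red) and lower (blue) at P15, with a dashed line at the 39 calls from all libraries. Leaving out Twi P15 replicate 2 gives the longest bar, 207, mostly lower genes, and leaving out Twi P10 replicate 3 the shortest, 4.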

How the data were processed

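The submitters' processing notes name kallisto 0.46.0 as the quantifier and GRCm39 as the genome build. The authors deposited TMM-normalized log2 CPM values, used here for all main results, and TPM values, used in 1 alternative. Read depth in reads is given in the labels' protocols only, and reads amplified without molecular identifiers do not count molecules. CPM was computed as 2 to the power of the log2 value minus that of the table's lowest value (-3.44), and genes within 0.001 of it are listed at 0. A row without a gene name, 0.0282% to 0.0687% of each library, was left out.

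Genes reaching 1 CPM in 2 or more libraries were fitted with limma 3.58.1 in R 4.3.3, with 6 genotype-by-age groups plus batch and trended, robust empirical Bayes variance. Calls used a Benjamini-Hochberg adjusted p under 0.05 over all 13292 genes. Fold changes are on the log2 CPM scale, are adjusted for batch and understate changes near the lowest value. One WT P10 column carries a number that no label of its group has; it was used as an unnumbered replicate in batch 1.

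Named genes were Galc, the extreme fold changes (up to 15 in each direction) of called genes without overlap (predicted and unnamed genes left out), for each of 20 function and 14 cell type lists the 4 members of smallest p, and the 10 smallest p of the genotype difference; some were left out for length. The comparison, its members, the lists and the motifs were chosen with earlier results of these data known, so none counts as independent evidence. The fit was tested on simulated data. Alternatives changed the scaling, filter, batch, samples, covariates, weights and variance prior.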

Additional observations from a re-analysis of the deposited data

How the results depend on the processing

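The 39 calls (25 higher, 14 lower) moved with the processing and with the libraries included, and the cause was not tested. Total calls with higher and lower in turn were 17, 10 and 7 without a filter on low values, 20, 14 and 6 with the unnumbered WT P10 library in batch 2, 19, 13 and 6 with a Y-linked gene covariate, 9, 5 and 4 with library quality weights, and 8, 4 and 4 with a variance prior without trend and robust fitting. They were 18, 15 and 3 in batch 2 libraries only, 13, 10 and 3 in Twi libraries only, and 0, 0 and 0 in the Twi P10 and P15 libraries only, where 1548 genes had an unadjusted p under 0.05. Without a batch term 15 rose, of 33 calls in all. A common median, quantile normalization, log2(TPM + 1), log2(CPM + 1) and a minimum of 5 CPM gave 32 to 48 calls. Leaving out each library gave 4 to 207 calls, with 2 to 47 higher and 2 to 160 lower. The genotype difference had 0 calls, 2 without a filter, and 0 to 7 with a library left out (7 without Twi P15 replicate 2, 1 without Twi P15 replicate 1, WT P20 replicate 2 or WT P20 replicate 3).

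With the replicate number as a block, the calls were 10, 9 higher and 1 lower. Over 28 same-numbered pairs, the correlation of deviations from group means ran from -0.0938 to 0.227, with 3 over 0.1. Pairs of unlike number ran from -0.155 to 0.130. In groups of 2 libraries the deviations mirror each other, so these values cannot decide whether the numbers pair the libraries.

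List medians changed sign at a minimum of 5 CPM for B cells (-0.52), oligodendrocytes (0.027) and astrocytes (0.55). With a library left out they ran from -0.87 (without Twi P10 replicate 3) to 1.41 for oligodendrocyte precursors, from -0.95 to 0.37 (without Twi P15 replicate 1) for ribosomal proteins and from -0.79 to 0.042 (without Twi P15 replicate 1) for oxidative phosphorylation. For erythroid cells they ran from -1.10 to 0.27 (without Twi P10 replicate 1). Without Twi P15 replicate 2 they turned to -0.27 for disease-associated microglia (highest 0.24) and -0.53 for B cells (highest 1.11). With 2 and 3 libraries in the groups compared, their number and the unknown read count per gene limit precision.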
